A study of Mus musculus with 6 samples.

Results

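Accessible chromatin of mouse liver was profiled by ATAC-seq, a method in which a transposase cuts open DNA and tags it for sequencing, and the wider intervals at the ends of protein-coding genes are described here. They were chosen by their measured positions: an interval counts when it is wider than the narrowest width in the list, 201 bp, and when its centre lies within 1 kb of either end of a protein-coding RefSeq gene span. This gave 11636 of 120905 intervals, or 9.62%. The series holds 6 liver libraries, 3 of the inbred strain C57BL/6J and 3 of the inbred strain 129S1/SvImJ, and its title concerns genetic background, diet and the daily rhythms of the liver. All 6 come from male, wild-type animals fed a high-fat diet, and no other diet, sex or genotype is among them; ages are not used here. Each library's labels also name an antibody, Esrrg, although ATAC-seq uses none, and what was transposed is given only by an unexplained abbreviation. All 6 libraries stand in a single combined list of mm10 positions with no score, read count or library name, so the strains could not be compared, the depth is unknown, and no value below has a replicate error. How widths above 201 bp arose is not given in the sources used here, so a width is not read as the extent of open chromatin. The widest intervals, of 401 bp, are no longer than 2 overlapping intervals of 201 bp. Whether wider intervals are merged from several narrowest ones was not tested, so every comparison of wider with narrowest intervals may compare sites called more than once with sites called once.

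The start of a gene is where RNA polymerase assembles, and in active genes it lies in a stretch kept free of nucleosomes by transcription factors and remodelling enzymes. Many mammalian promoters are CpG islands, which keep the CpG dinucleotides that are depleted elsewhere in the genome, and these serve mostly genes used in nearly all cells. ETS factors, NRF1, CREB, YY1 and SP factors commonly bind such promoters, whereas genes of a single tissue more often have CpG-poor promoters, some with a TATA box.

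Sequences of 6 promoters show such motifs inside a wider interval. The first was chosen for an ETS motif, the second for a CREB motif, the third for an NRF1 motif, the fourth for an E-box, the fifth for a YY1 motif and the sixth for a D-box. For each motif the gene with the widest interval over it was taken from the lists given gene by gene. Each is the RefSeq promoter on build GRCm38.p6, which has the mm10 coordinates, read 5′ to 3′ along the gene and ending 30 bases past the start site. The motif that lies in the interval is in capitals, on whichever strand it was found.
Psmc1: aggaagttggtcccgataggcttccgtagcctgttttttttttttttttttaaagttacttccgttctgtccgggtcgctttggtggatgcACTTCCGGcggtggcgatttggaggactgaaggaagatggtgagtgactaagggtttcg
Snrpg: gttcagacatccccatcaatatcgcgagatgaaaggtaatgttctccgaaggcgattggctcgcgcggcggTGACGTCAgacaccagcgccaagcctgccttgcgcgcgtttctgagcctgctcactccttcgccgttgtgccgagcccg
Etfa: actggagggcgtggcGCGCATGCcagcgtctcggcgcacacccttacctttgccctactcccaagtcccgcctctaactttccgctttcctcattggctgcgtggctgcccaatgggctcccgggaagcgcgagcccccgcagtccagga
Mlxipl: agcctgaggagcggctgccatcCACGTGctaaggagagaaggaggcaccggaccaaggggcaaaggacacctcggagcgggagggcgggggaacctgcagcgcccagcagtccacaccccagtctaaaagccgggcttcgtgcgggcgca
Psmc5: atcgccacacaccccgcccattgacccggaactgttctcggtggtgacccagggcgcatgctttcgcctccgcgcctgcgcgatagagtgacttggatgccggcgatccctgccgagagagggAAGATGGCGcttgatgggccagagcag
Per3: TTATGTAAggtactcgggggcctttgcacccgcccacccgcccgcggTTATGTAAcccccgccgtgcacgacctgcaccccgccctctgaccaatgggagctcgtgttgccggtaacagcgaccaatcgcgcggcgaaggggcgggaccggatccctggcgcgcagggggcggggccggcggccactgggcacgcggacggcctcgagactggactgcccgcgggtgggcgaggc

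Psmc1, a proteasome ATPase subunit, is shown from chr12:100110082-100110231 on the plus strand, and its interval of 296 bp spans chr12:100110082-100110377. Snrpg, a spliceosome core protein, is shown from chr6:86371420-86371569 on the plus strand under an interval of 296 bp at chr6:86371268-86371563. Etfa, an electron carrier subunit of fatty acid oxidation, is shown from chr9:55512214-55512363 on the minus strand, and the interval of 326 bp spans chr9:55512071-55512396. Mlxipl encodes ChREBP, the carbohydrate-responsive activator of lipogenic genes. It is shown from chr5:135089770-135089919 on the plus strand, and its interval of 281 bp spans chr5:135089721-135090001. Psmc5, another proteasome ATPase subunit, is shown from chr11:106256065-106256214 on the plus strand under an interval of 245 bp at chr11:106256049-106256293. Per3, a period gene of the circadian clock, is shown from chr4:151044636-151044870 on the minus strand. It carries 2 D-box copies inside an interval of 241 bp at chr4:151044773-151045013. The CpG ratio of the 300 bp promoter window, explained below, was between 0.70 for Mlxipl and 1.06 for Snrpg.

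A pair of hepatocyte markers is shown for contrast, the first in alphabetical order with a wider interval at its start and the first with none at either end, again from 120 bases before to 30 after the start site and without capitals.
Apob: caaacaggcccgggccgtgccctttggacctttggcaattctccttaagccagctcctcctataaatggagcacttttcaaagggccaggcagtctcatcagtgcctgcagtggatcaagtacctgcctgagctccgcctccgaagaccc
Ahsg: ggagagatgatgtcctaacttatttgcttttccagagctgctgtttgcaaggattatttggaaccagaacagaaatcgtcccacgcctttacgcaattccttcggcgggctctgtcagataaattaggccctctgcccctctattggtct

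Apob, the structural protein of very low density lipoprotein, is shown from chr12:7977557-7977706 on the plus strand. It had a wider interval of 290 bp that was centred 979.5 bp inside the gene, at chr12:7978464-7978753, and so did not cover these bases, while a narrowest interval lay 153 bp inside. Ahsg, a secreted plasma glycoprotein, is shown from chr16:22891895-22892044 on the plus strand. It had 3 narrowest intervals at its ends and no wider one. The CpG ratios were 0.37 for Apob and 0.33 for Ahsg.

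Wider intervals lay at gene starts rather than at far ends. A start is here the upstream end of a gene span, and a far end is the other. The strand came from the RefSeq promoter table for 17492 of 21887 protein-coding genes. Of these, 13537 had a listed start site within 100 bp of the upstream end. For the rest, a distance from the start is one from the edge of the span, and transcription may begin elsewhere. Of the 9289 members whose nearest end was of a known kind, 8341 (89.8%) were nearest to a start and 948 (10.2%) to a far end, and 2347 more were nearest to a gene without a strand there. Chromosome 18, with 302 members, was not analysed here for starts, far ends, CpG content or motifs. Of the 3213 narrowest intervals at ends of a known kind, 2497 (77.7%) were nearest to a start. The start share of the members was above that of the narrowest intervals on all 19 chromosomes with at least 20 narrowest intervals of a known kind. It ranged from 85.8% on chromosome 1 to 92.9% on chromosome X, against 71.0% on chromosome 14 to 88.8% on chromosome 19 for the narrowest. No test was made between classes, since the intervals come from a single list and are not replicates, and the chromosomes stand in for a spread.

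Members centred tightly on starts. The median distance of the centre from the start was 98 bp (quartiles 41.5 and 302.5) and 4539 of 8341 intervals (54.4%) covered the start base itself. For the narrowest intervals nearest to a start the median distance was 236 bp, and 32.5% covered it. The fullest 50 bp bin, just upstream of the start, held 16.2% of the members near starts and 9.81% of the narrowest. Near far ends the members had a median distance of 504.75 bp and only 64 of 948 (6.75%) covered the end base, which is close to the 5.45% of narrowest intervals there. Distances up to 1 kb are part of the rule, so they are given as a description.

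**Figure D1:**
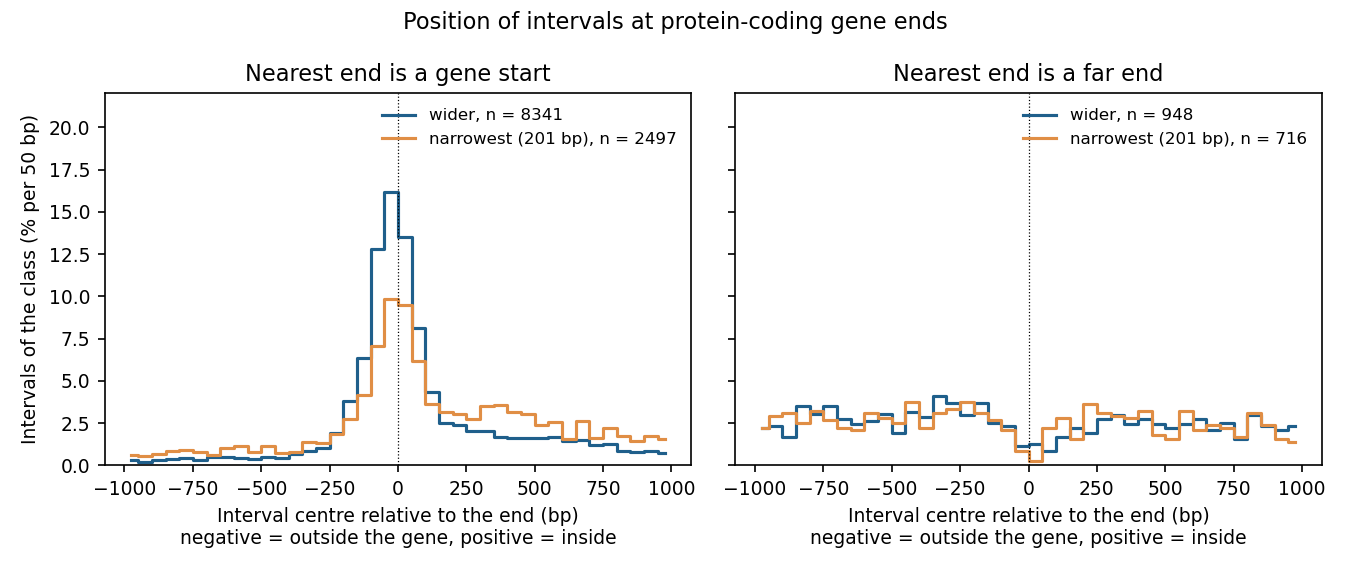
Share of intervals (%, per 50 bp) against the position of the interval centre relative to the nearest gene end (bp, negative outside the gene), for wider and narrowest intervals, near starts (left) and far ends (right). Wider intervals peak at 16.2% in the bin just upstream of the start, the narrowest reach 9.81% there, and neither peaks at far ends.

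The sides of the start were used unequally, and the side changed with distance. Within 100 bp of the start 2419 members were centred outside the gene and 1789 inside. From 500 to 1000 bp the order turned, with 990 inside the gene and 319 outside, so that 75.6% lay downstream of the start. The narrowest intervals at that distance were downstream in 70.7% of cases. At 885 starts there were exactly 2 members, with a median distance of 687.5 bp between their centres. At 585 of these starts (66.1%) 1 centre lay outside and 1 inside the gene, with median positions over all 885 starts of 102 bp outside for the outer and 560 bp inside for the inner centre. Such pairs include Me1, a cytosolic source of NADPH, with intervals of 321 bp centred 50 bp outside and 296 bp centred 517.5 bp inside. Fads2, a fatty acid desaturase, had intervals of 313 bp centred 146 bp outside and 209 bp centred 608 bp inside.

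Intervals were more often wide the closer they lay to a start. Within 100 bp of a start 83.9% of 5033 intervals were wider than 201 bp, from 100 to 250 bp 79.2% of 2241, from 250 to 500 bp 66.0% of 1572, and from 500 to 1000 bp 65.7% of 1992. Near far ends the shares were 57.6%, 53.2%, 57.2% and 58.0% over the same distances. Deep inside genes, more than 1 kb from any protein-coding end, 55.6% of 50219 intervals were wider, and away from protein-coding genes 46.4% of 54915 were. Far ends therefore had about the share of gene interiors.

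**Figure D2:**
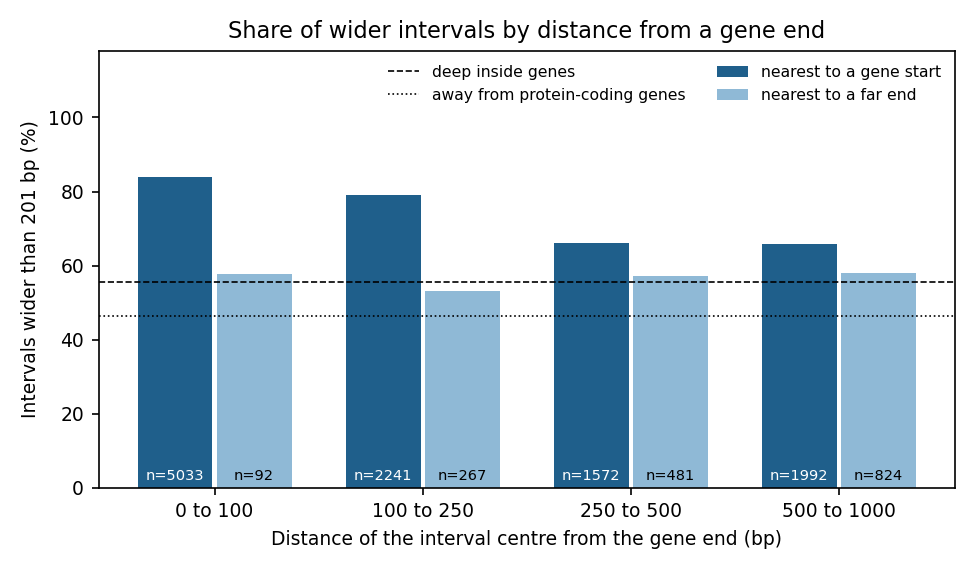
Share of intervals wider than 201 bp (%) by distance of the centre from the nearest gene end (bp), with the number of intervals in each bar; dashed and dotted lines give the shares deep inside genes and away from protein-coding genes. Bars for starts go from 83.9% within 100 bp to 65.7% at 500 to 1000 bp, and those for far ends stay between 53.2% and 58.0%.

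The median width was the same in each place, while widths of at least 250 bp made up a larger share of the members. The members were 202 to 401 bp wide, with a median of 218 bp and quartiles of 208 and 240, and the median was also 218 bp for wider intervals deep inside genes and elsewhere. A width of at least 250 bp was reached by 2330 of the 11636 members, against 4690 of 27906 wider intervals deep inside genes (16.8%), and at least 300 bp by 545 (4.68%) against 3.23%. Among members of 300 bp or more with a known end, 94.3% of 439 were nearest to a start, against 90.0% of 2851 among those of 202 to 209 bp. At the edges of the rule, 483 members were 202 bp wide and 4135 intervals at ends had the narrowest width. At the edge of distance, 334 members had centres 900 to 1000 bp from an end and 316 wider intervals lay 1000 to 1100 bp away.

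The 10 widest members include intervals at genes of signalling and transcription. The widest, at 401 bp each, were at Gnaz, a G protein alpha subunit (chr10:74966925-74967325, centred 52 bp outside the lower-coordinate end), and Vasp, an actin regulator (chr7:19271586-19271986, centred 68 bp inside the start). They were followed at 399 bp by Zfp639, a zinc finger gene, Gipc2 and Akr1b10, an aldo-keto reductase. Smad6, an inhibitory SMAD of BMP signalling, had an interval of 398 bp centred 998.5 bp outside its start, just within the window, and a second of 206 bp centred 47.5 bp outside. Tiam2 had 397 bp, and Zfp442, the intraflagellar transport gene Ift52 and the X-linked gene Klhl4 had 396 bp each.

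Some intervals served the starts of neighbouring genes. Of the members, 1591 (13.7%) lay within 1 kb of ends of at least 2 protein-coding genes, against 10.6% of the narrowest intervals at ends. Where exactly 2 genes with known strands were in reach, 849 of 1181 members (71.9%) were near the start of both, and 49 (4.15%) near the far end of both. For the narrowest intervals these shares were 64.8% and 10.0% of 310. Among the 849, 527 lay at head-to-head genes, whose starts point away from each other, with a median gap of 98 bp between the spans. The widest of these were 390 bp at Cct3, a chaperonin subunit, and Tsacc, 388 bp at Gorasp1, a Golgi protein, and Ttc21a, and 383 bp at Coa5, a cytochrome c oxidase assembly factor, and Unc50. An interval of 304 bp at chr2:26910464-26910767 covered the starts of Med22, a Mediator subunit, and Rpl7a, a ribosomal protein, whose spans are 42 bp apart. It was centred 26.5 bp inside Med22 and 69.5 bp outside Rpl7a, and it counts for both. Ends of lncRNA genes were within 1 kb of 963 (11.5%) of the members near starts and of 31 (3.27%) of those near far ends. For the narrowest intervals the shares were close, at 9.97% and 2.37%.

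Few of the 948 members near far ends also had a listed start in reach. A start of the promoter table lay within 1 kb of 63 (6.65%), and 885 had none. Among the 716 narrowest intervals near far ends the share was 9.78%. Intervals closer to a start than to a far end were counted with starts, so a low share is partly built in. The 948 members include the 363 bp interval of Thrsp, a regulator of lipogenesis, at chr7:97412179-97412541, centred 573 bp beyond the far end. They also include the 336 bp interval of Tat, the hepatic tyrosine aminotransferase, at chr8:110000036-110000371, centred 399.5 bp beyond its far end. Insig1, which retains the SREBP complex in the endoplasmic reticulum, had a 293 bp interval centred 915 bp beyond its far end, and Alb, the serum albumin gene, a 272 bp interval 915.5 bp beyond.

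At gene ends, members had other intervals close by less often than the narrowest did. The nearest other interval was a median of 4443.5 bp away, against 1038 bp for the narrowest intervals at gene ends, and lay within 500 bp for 16.3% against 38.1%. Members had more close neighbours than wider intervals elsewhere, with another interval within 1 kb for 29.8%, against 15.0% deep inside genes and 13.5% away from genes. Away from genes the order of the median gaps was the other way, at 5642 bp for wider and 7187 bp for narrowest intervals. The share with another interval within 500 bp kept its order there, at 5.95% of wider against 9.10% of narrowest intervals. It did so deep inside genes too, at 6.44% against 10.8%. Among starts with any interval, 7641 had wider intervals only, 794 had both kinds and 1557 had the narrowest only.

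In terms of genes, 11124 of 21887 protein-coding genes (50.8%) had a member at an end, 2137 (9.76%) had only narrowest intervals there and 8626 (39.4%) had none. Among the 17492 genes with a strand, a member lay at the start of 8435 (48.2%) and at the far end of 1331 (7.61%), and 818 had members at both ends. Most genes with a member had 1 (9162 genes), 1801 had 2, and the most was 4, reached by 6 genes. The first 5 of these in alphabetical order are Gtf3c6, a subunit of a polymerase III factor, Plcl2, Upp1, the uridine phosphorylase, Usp43, a deubiquitinase gene, and Xpr1, the phosphate exporter. Upp1 had 2 members at its start, of 230 and 226 bp, and 2 at its far end, of 218 and 203 bp.

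Genes with a member were long. Their median length was 23497 bp, against 18686 bp for genes with only narrowest intervals at an end and 9428 bp for genes with none. Up to 2 kb, 12.3% of 2583 genes had a member, and above 50 kb 62.1% of 4945 did. Chemoreceptor genes and predicted models with Gm numbers make up much of the short class, and without them the shares were 26.5% and 63.0%. On autosomes the share of genes with a member ranged from 40.8% on chromosome 7 to 59.7% on chromosome 8, and it was 37.9% on chromosome X and 1.17% on chromosome Y, which had 4 members.

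Of 316 genes in 8 lists of basic cellular machinery, 268 (84.8%) had a wider interval at an end, read here against the 50.8% of all protein-coding genes. Complex I subunits of the respiratory chain had one in 33 of 34 cases, and all 30 subunits with a strand had it at the start. Among them Ndufb8 had 317 bp and Ndufb5 297 bp. The spliceosome core had 21 of 22, without Sf3b3, and the proteasome 29 of 31, without Psma6 and Psmd1. Psmd14, the deubiquitinase of the proteasome lid, had the widest proteasome interval at 323 bp, centred 67 bp inside its start. Cytosolic aminoacyl-tRNA synthetases had 17 of 20, mitochondrial ribosomal proteins 65 of 78, cytosolic ribosomal proteins 69 of 84 and Mediator subunits 21 of 28. Housekeeping reference genes had 14 of 20, among them the 334 bp interval of Sdha, a succinate dehydrogenase subunit, while Actb, Hprt and Hsp90ab1 were among those without a wider interval.

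Clock genes had a member in 18 of 22 cases. The widest was 374 bp at Per2, a period repressor, at chr1:91459448-91459821, centred 283.5 bp outside its upper-coordinate end, followed by 299 bp at Npas2, a partner of BMAL1, centred 388 bp inside the start, and 285 bp at Tef, a D-box factor. At the other extreme, Clock, centred 767 bp inside its start, Per1 at chr11:69095071-69095275 and Nr1d1, the REV-ERBα gene, at chr11:98775371-98775575 had intervals of 205 bp, and Dbp had 209 bp centred 7 bp outside its start. Nr1d2, which encodes REV-ERBβ, had 2 members on either side of its start, of 226 bp outside and 206 bp inside. The 4 genes without a member were Arntl, Csnk1d, Hlf and Nfil3. Csnk1d had 3 narrowest intervals at its ends and Hlf had 2, whereas Arntl and Nfil3 had no interval of any width there.

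Lipogenic genes had members in 20 of 21 cases, with a median of 242.5 bp for the widest member per gene against 221 bp over all protein-coding genes with a member. Thrsp had 363 bp, Me1 321 bp and Fads2 313 bp. Fasn, the fatty acid synthase, had 214 bp centred 983.5 bp inside its start, Acaca, acetyl-CoA carboxylase, 264 bp centred 36.5 bp inside, and Elovl6, an elongase, 252 bp centred 76.5 bp inside. Srebf1, the SREBP1 activator of these genes, was the exception, with a 201 bp interval centred 719 bp outside its start. Genes of fatty acid oxidation and ketogenesis had members in 16 of 22 cases, led by Etfa at 326 bp, Bdh1, a ketone body dehydrogenase, at 320 bp and Hadha, a subunit of the trifunctional protein, at 289 bp. Cyp4a10, Cyp4a14 and Etfdh were among those without a wider interval.

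Cholesterol and bile acid genes had a member in 16 of 22 cases. The widest were 293 bp at Insig1, 276 bp at Nr1h4, the bile acid receptor gene, centred 34.5 bp outside its start, and 275 bp at Hmgcs1, a sterol synthesis enzyme. Abcb11, the bile salt export pump, had narrowest intervals only, and Abcg8 and Cyp8b1 had none. In glucose and insulin metabolism the count was 14 of 20, with 305 bp at Irs2, an insulin receptor substrate, 293 bp at Khk, ketohexokinase, and 286 bp at Pklr, the liver pyruvate kinase. G6pc, the glucose-6-phosphatase, and Foxo1 each had a narrowest interval and no wider one.

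Hepatocyte markers had members in 13 of 22 cases and narrowest intervals alone in 7, so that 20 had an interval of some width. Wider intervals thus made up 65.0% of the marked hepatocyte genes, against 83.9% of all marked protein-coding genes. Tat had 336 bp, F2, prothrombin, 304 bp centred 663.5 bp outside its start with a second of 282 bp centred 23.5 bp inside, and Apob 290 bp. Ahsg, Apoa1 and Arg1 were among the genes with narrowest intervals only. Liver transcription factors had members in 12 of 22, with 282 bp at Esrra, an estrogen-related receptor, 275 bp at Foxa3 and 257 bp at Xbp1, and Cebpa, Cebpb and Esrrb were among those without a wider interval.

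In each of 7 lists of markers of other cell types the share with a member was below the 50.8% of all genes. The exact 95% binomial intervals, which treat genes as independent draws, lay below that share for the muscle, lymphocyte and macrophage lists and included it for the other 4. They also included it for lists above all genes, namely fatty acid oxidation, cholesterol, glucose, hepatocyte markers, liver transcription factors and housekeeping genes. With a 500 bp window, hepatocyte markers and liver transcription factors were each at 45.5%, against 44.8% of all genes. At widths of at least 250 bp the endothelial list was above all genes, at 12.5% against 12.0%. The counts were 7 of 16 endothelial, 8 of 20 neuronal, 6 of 16 stellate cell and fibroblast, 4 of 12 cholangiocyte, 3 of 16 skeletal muscle, 2 of 15 lymphocyte and 2 of 20 macrophage genes. Marco, a macrophage scavenger receptor, had 244 bp and Spi1, the myeloid factor PU.1, 250 bp. Kdr, the VEGF receptor of endothelium, had 328 bp centred 660.5 bp inside its start, Lrat, the retinol-storing enzyme of stellate cells, 252 bp, and Cdh1, E-cadherin, 300 bp. Adgre1, C1qa, Cd3d, Acta1 and Mb had no interval at an end. A bulk list cannot tell few cells of a type from weak accessibility in each.

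Large families differed as well. Zinc finger genes named Zfp had members in 268 of 397 cases (67.5%), led by Zfp639 at 399 bp and Zfp442 at 396 bp. Solute carriers had 202 of 337 (59.9%), with 394 bp each at Slc25a35 and Slc30a9, a zinc transporter. Cytochrome P450 genes had 20 of 92 (21.7%), with 298 bp at Cyp4f17, and narrowest intervals alone in 18. Keratin genes had 5 of 49, among them Krt8, the simple epithelial keratin of hepatocytes, with 252 bp centred 73.5 bp outside its start. Chemoreceptor genes, with a median length of 951 bp, had 33 of 1478 (2.23%), the widest being 365 bp at Olfr309, and genes with Gm numbers 147 of 1327 (11.1%). Counts for families with near-identical copies are uncertain, because how such reads were placed is not given.

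**Figure D3:**
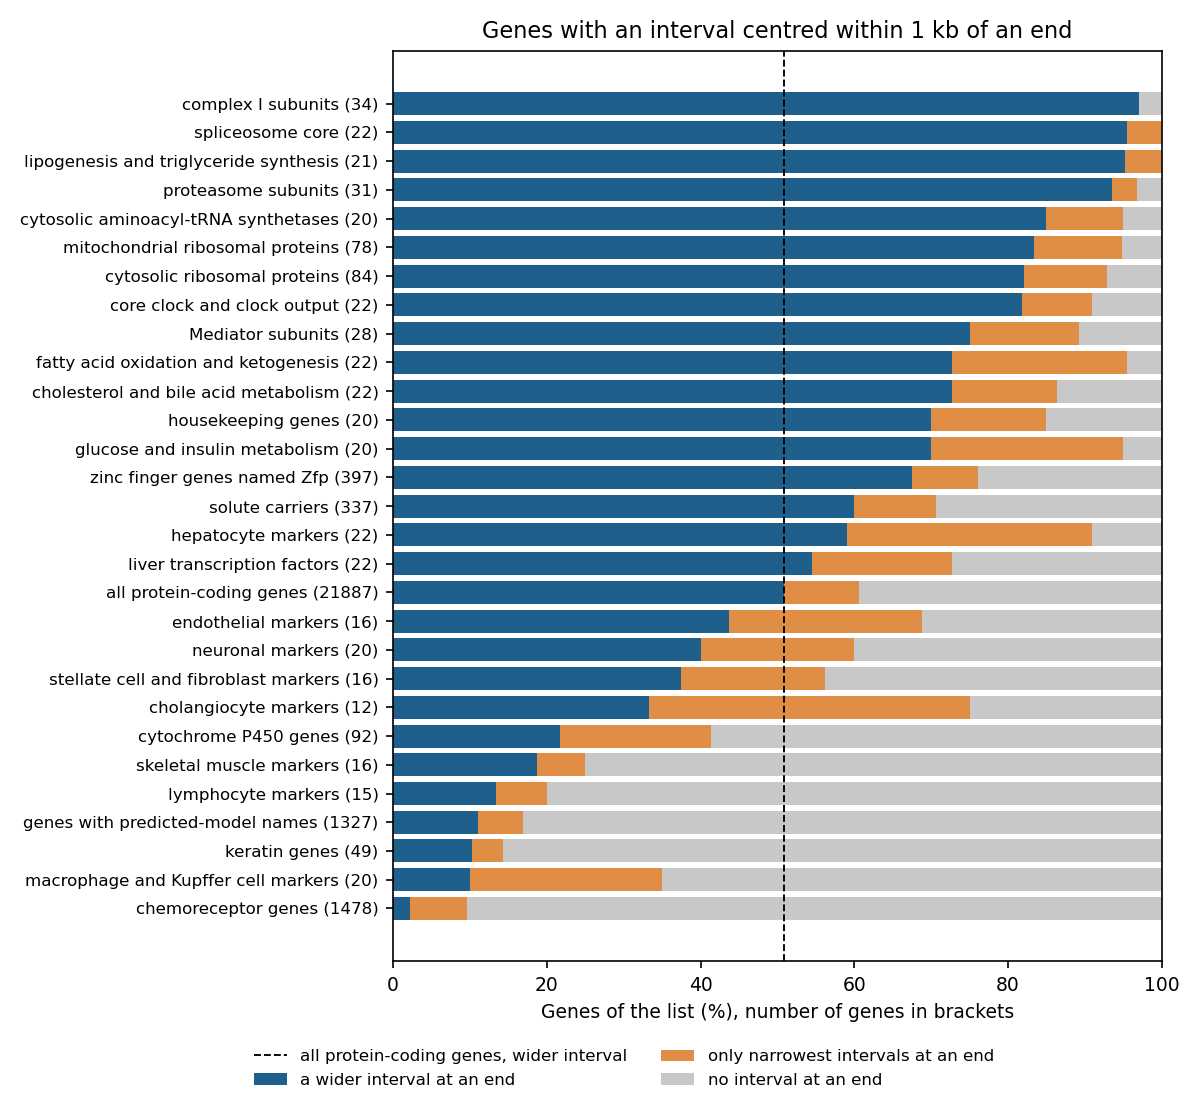
Share of genes (%) in each list with a wider interval, only narrowest intervals, or no interval centred within 1 kb of an end, with the number of genes in brackets; the dashed line marks the 50.8% of all protein-coding genes with a wider interval. Machinery and lipogenic lists lie right of the line, and all 7 lists of other cell types lie left of it, where endothelial markers did not stay at widths of at least 250 bp (12.5% against 12.0%).

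Promoters with a wider interval were CpG-rich. The CpG ratio is the number of CpG dinucleotides over that expected from the C and G content, and windows above 0.6 are called CpG-rich here. Windows of 250 bases before and 50 after the start were available at the start end of 13537 genes. The median ratio was 0.77 (quartiles 0.60 and 0.91) for 6640 windows with a wider interval within 1 kb of the start, 0.65 for 1189 with narrowest intervals only and 0.19 for 5708 with none. CpG-rich windows made up 74.7%, 55.5% and 11.3% of these classes. Of all 6268 CpG-rich windows 79.2% had a wider interval, against 23.1% of 7269 CpG-poor ones. In 5 equal groups ordered by the ratio, the share with a wider interval went from 6.20% in the lowest through 18.7%, 59.3% and 78.0% to 83.1% in the highest, while that with narrowest intervals only stayed between 5.80% and 10.4%. The median GC content of the windows also differed, at 60.7% with a wider interval and 47.0% with none, and its part in the result was not tested.

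**Figure D4:**
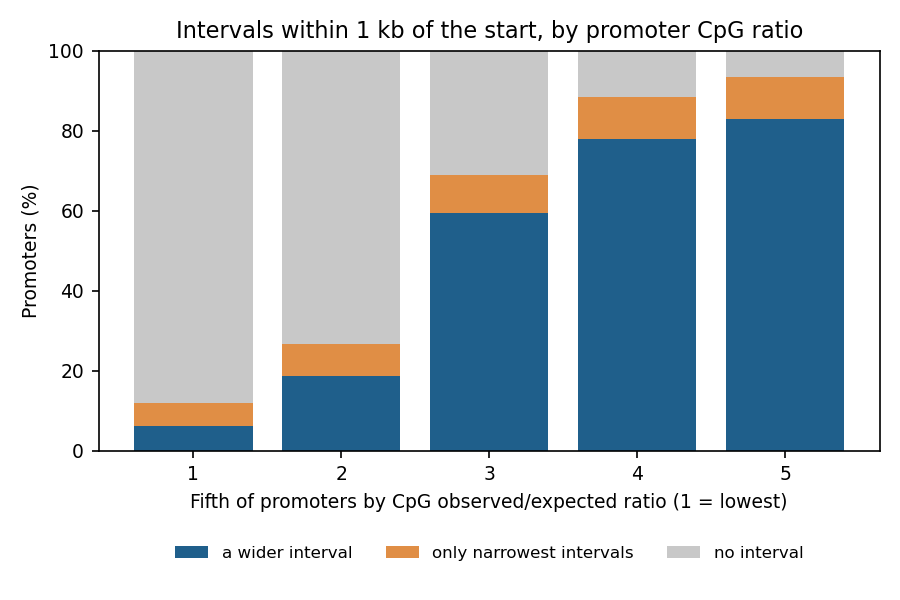
Share of promoters (%) with a wider interval, only narrowest intervals or no interval within 1 kb of the start, for 5 equal groups of 13537 promoters ordered by CpG observed over expected ratio. The wider share goes from 6.20% in the lowest group to 83.1% in the highest.

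Within the CpG-rich and CpG-poor classes the gene lists differed. Of the CpG-poor promoters in the 5 lists of hepatic metabolism and hepatocyte markers, 23 of 39 (59.0%) had a wider interval, against 10 of 54 (18.5%) in the 7 lists of other cell types and 23.1% of all CpG-poor promoters. By list these were 7 of 8 for fatty acid oxidation, 4 of 5 for lipogenesis, 3 of 6 each for cholesterol and for glucose metabolism, and 6 of 14 for hepatocyte markers. The 7 of fatty acid oxidation and 4 of lipogenesis had ratios from 0.40 (Bdh1) to 0.58 (Acads), close below the cut of 0.6. Fgf21 and Thrsp, the CpG-poor genes of these lists without one at the start, had 0.36 and 0.19. Among all promoters the share was 59.3% in the group with ratios of 0.37 to 0.68 and 18.7% in the next lower group. The lists were not matched for CpG ratio, and its part in these differences was not tested. Of the CpG-rich promoters of the 7 lists of other cell types, 4 of 15 (26.7%) had a wider interval, against 79.2% of all CpG-rich promoters. The list of liver transcription factors, which is in neither group, had one at 2 of 6 CpG-rich and 4 of 7 CpG-poor promoters. For 8 lists of basic machinery the shares were 169 of 193 CpG-rich (87.6%) and 24 of 31 CpG-poor promoters (77.4%). CpG-poor promoters with a member include Otc, a urea cycle enzyme with a ratio of 0.07 and an interval of 240 bp centred 39.5 bp inside its start. They also include Fga, the fibrinogen alpha chain, with a ratio of 0.16 and 234 bp centred 29.5 bp inside. Tdo2, the hepatic tryptophan dioxygenase, had a ratio of 0.24 and 202 bp centred 2.5 bp outside. Hnf4a, a central hepatocyte factor, had a ratio of 0.18 and 206 bp centred 33.5 bp outside. The hepatocyte genes Alb, Apoa1, Cyp2e1, Cyp3a11 and Fgb had CpG-poor promoters and no interval at the start. This grouping of lists was made after their values were seen.

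Motifs of general promoter factors were more common in windows with a wider interval. Of 18 motifs searched on both strands, the YY1 motif AAGATGGCG was in 3.39% of windows with a wider interval, 2.27% with narrowest intervals only and 0.25% with none, and in 1.96% of all 13537 windows. The ETS motif CCGGAAGT, as shown in Psmc1, was in 8.92%, 5.38% and 1.12%, and in 5.32% of all. The NRF1 motif GCATGCGC, as in Etfa, was in 5.78%, 5.30% and 1.14% (3.78% of all), the CREB motif TGACGTCA, as in Snrpg, in 3.70%, 3.20% and 0.88% (2.47% of all), and the ZNF143 motif ACTACAATT in 0.90%, 0.42% and 0.16% (0.55% of all). The GC box GGGGCGGGG was in 23.7%, 17.5% and 4.70% (15.1% of all), and the E-box CACGTG, as in Mlxipl, in 10.8%, 8.33% and 4.50% (7.93% of all). The C/EBP motif TTGCGCAA was in 21 windows with a wider interval (0.32%), 2 with narrowest intervals only and 5 with none. Each of these motifs except that of ZNF143 contains a CpG, and none of those given below as less common does. Among CpG-poor windows the share with a wider interval went from 6.20% in the lowest group by CpG ratio to 18.7% in the next. It was 59.3% in the group with ratios of 0.37 to 0.68, which the cut of 0.6 divides. The part of CpG content in the motif orders was not tested beyond the CpG-rich and CpG-poor classes below.

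The TATA box and several liver and clock motifs were less common in windows with a wider interval than in those with none. TATAAA was in 7.14% of windows with a wider interval, 13.1% with narrowest intervals only and 24.2% with none (14.8% of all). GTTAAT, a short HNF1 motif, was in 4.25%, 5.72% and 9.74% (6.69% of all), and TGAGTCA, the AP-1 motif, in 3.09%, 4.96% and 6.57% (4.72% of all). CAAAGTCCA for HNF4A was in 18 windows with a wider interval (0.27%) and 34 with none (0.60%), and TCAAGGTCA for estrogen-related receptors in 12 (0.18%) and 30 (0.53%). TTATGTAA, the D-box form of Per3, was in 31 (0.47%) and 87 (1.52%), the form TTATGCAA, which differs by a single base, in 39 (0.59%) and 61 (1.07%), and the FOXA motif TGTTTAC in 172 (2.59%) and 216 (3.78%), with 2.35% among windows with narrowest intervals only. TAGGTCA for REV-ERB and ROR receptors, which shares AGGTCA with the estrogen-related receptor motif, was in 1.99% and 2.98%. CCAAT, bound by NF-Y, was in 41.1% of windows with a wider interval and in 40.3% of those with none. A match is only a run of letters, and its presence here shows no binding.

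**Figure D5:**
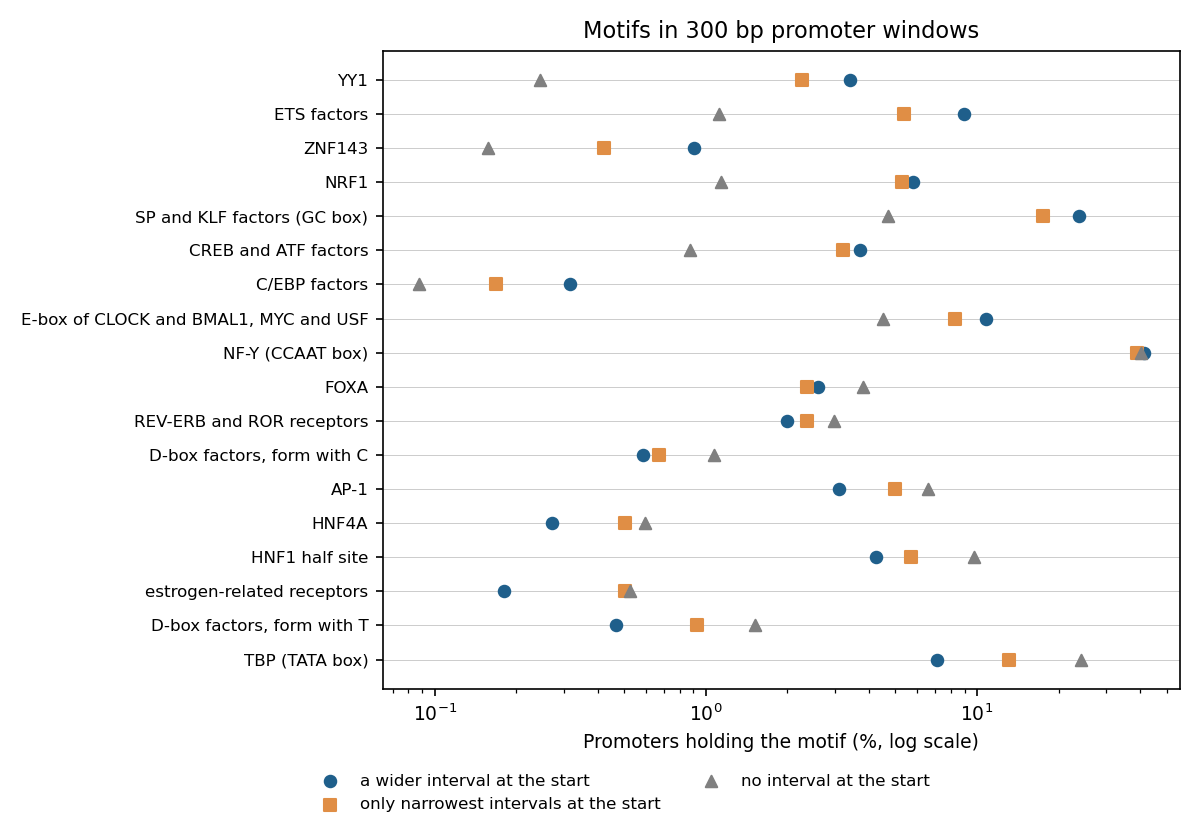
Share of 300 bp promoter windows holding each of 18 motifs (%, log scale) with a wider interval (circles), only narrowest intervals (squares) or no interval (triangles) within 1 kb of the start. YY1, with 3.39% against 0.25%, and ETS, with 8.92% against 1.12%, have the wider class to the right, and the TATA box, with 7.14% against 24.2%, has it to the left.

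Within a CpG class some of these orders held and others did not. The CpG ratio still varied within each class, so a class does not hold CpG content fixed. Among CpG-rich windows, a wider interval was present in 86.8% of 604 with the ETS motif against 78.4% without it, and in 86.3% of 241 with the YY1 motif against 78.9% without it. For NRF1 the shares were 78.5% with and 79.2% without, and for the E-box 79.3% and 79.2%, whereas among CpG-poor windows they were 53.5% against 22.8% for NRF1 and 38.3% against 22.4% for the E-box. Among CpG-poor windows the share was 58.6% of 116 with the ETS motif against 22.5% without, 56.8% of 370 with the GC box against 21.3%, and 11.7% of 1610 with TATAAA against 26.3%. Some liver and clock motifs that were less common overall did not keep that order. The FOXA motif had 81.0% with against 79.1% without among CpG-rich windows and 20.8% against 23.2% among CpG-poor ones. The REV-ERB and ROR motif had 82.3% against 79.1% and 22.6% against 23.1%. The D-box form TTATGCAA had 80.8% of 26 against 79.2% and 22.0% of 82 against 23.1%. HNF4A had 24.4% of 45 against 23.1% among CpG-poor windows, but 53.8% of 13 against 79.2% among CpG-rich ones. Other such motifs stayed lower in both classes. The HNF1 motif had 77.4% against 79.2% among CpG-rich and 17.0% against 23.7% among CpG-poor windows. The estrogen-related receptor motif had 60.0% of 10 against 79.2% and 15.8% of 38 against 23.1%. The D-box form TTATGTAA had 75.9% of 29 against 79.2% and 9% of 100 against 23.3%.

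The motifs also differed in where they lay relative to the interval. In the 5569 windows that a member overlapped, 57.8% of the bases were inside the member. Inside it lay 439 of 579 ETS motifs (75.8%), 381 of 516 NRF1 motifs (73.8%), 47 of 57 ZNF143 motifs (82.5%) and 161 of 229 CREB motifs (70.3%). Of the TATAAA matches 138 of 397 (34.8%) were inside, of the HNF1 motifs 79 of 232 (34.1%) and of the FOXA motifs 54 of 135 (40.0%). The E-box, at 343 of 641 (53.5%), and the YY1 motif, at 109 of 207 (52.7%), were nearer to the share of bases. That share takes no account of position in the window. In windows with a wider interval the median positions from the start were -148 bp for TATAAA, -149.5 bp for HNF1 and -135.5 bp for FOXA. They were -22 bp for ETS, -46 bp for NRF1, -66.5 bp for ZNF143 and -67 bp for the E-box. The part of position in the inside shares was not tested.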

How the data were processed

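ATAC-seq libraries of liver from 3 C57BL/6J and 3 129S1/SvImJ mice were deposited by the authors as a list of 120905 interval positions with 3 columns, chromosome, start and end, and no other values. The submitters' processing notes name fastp, Bowtie2, HOMER and mm10. How reads were filtered, peaks thresholded, read ends shifted and libraries merged is not given in the sources used here. The number of weak sites depends on that threshold, and the widths depend on the merging.

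Starts were converted to 1-based positions. Protein-coding genes (21887) came from a RefSeq table of GRCm38.p6. Strand and sequence came from the RefSeq promoter table, matched by gene ID for 17492 genes. A promoter window was used where its start site lay within 100 bp of the span's start, which left 13537. An interval near several gene ends was assigned to the nearest, and counted for each gene in reach. Code was checked on planted intervals. Python 3.11.15 and pandas 2.3.3 were used.

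No test was run, because the list holds no value per library, so the strain comparison was not made. The members, 28 gene lists and 18 motifs were chosen with earlier results of these data known, and 1 listed name was not found among the genes. Genes named are the 10 widest members, the 5 genes with the most members, and, per list, the 3 with the widest members and up to 3 without. Any further genes, and the groups of lists, were picked with their values in view, and several genes that the rule gives were left out. Alternatives were other windows, width limits, overlaps and gene sets.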

Additional observations from a re-analysis of the deposited data

How the results depend on the processing

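The share of all intervals that were members was 7.73% with a window of 500 bp, 11.8% with 2 kb, 15.8% with 5 kb and 9.91% when overlap with the window replaced the centre. It was 1.93% for widths of at least 250 bp and 0.451% for at least 300 bp. The share of members nearest to a start was 93.7% with 500 bp and 92.6% for at least 250 bp. With 500 bp, 11.2% of members were near 2 or more genes and the median distance was 82 bp, and for at least 250 bp the median was 111 bp. The share of genes with a member was 44.8% with 500 bp, 66.1% with 5 kb, 12.0% for at least 250 bp and 57.4% without chemoreceptor and Gm-numbered genes. CpG-rich windows made up 78.4% of promoters when the interval had to overlap the window. Members near a single gene, autosomes alone and the CpG-rich share for at least 250 bp stayed within the 95% binomial interval of the reported value. Of the 28 lists, 17 lay above the share of all genes, also 17 with 500 bp and 18 for at least 250 bp. Endothelial markers were the list that turned, to 12.5% against 12.0%. Motifs were rerun only for widths of at least 250 bp and for overlap with the window, and in both none changed its order between windows with a member and with none. The ratio of these shares moved from 13.8 to 7.11 for YY1 with overlap, and at 250 bp from 5.73 to 2.81 for ZNF143 and from 3.61 to 7.94 for C/EBP, which was 2.36 with overlap. No paired analysis was possible because the list carries no library names, and leaving out a library was not possible for the same reason. Depth is unknown, so weak sites cannot be told from absent ones, and the list gives no measure of variation between animals.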

Other observations

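Developmental genes are a further group in which CpG-rich promoters often lacked a wider interval. These families were chosen after the values above were seen. Of 39 Hox genes, which pattern the body axis, 5 (12.8%) had a member at an end, as did 25 of 74 other homeobox genes (33.8%), 16 of 41 Pax, Sox and Tbx genes (39.0%) and 13 of 41 Wnt and Fgf ligand genes (31.7%), against 50.8% of all protein-coding genes. Among their CpG-rich promoters a wider interval was present at 1 of 8 Hox, 7 of 24 other homeobox, 7 of 14 Pax, Sox and Tbx, and 3 of 15 Wnt and Fgf promoters, against 79.2% of all CpG-rich promoters. Of 17 voltage-gated potassium channel genes 5 (29.4%) had a member, and all 3 of their CpG-rich promoters had a wider interval.

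The number of listed start sites went with members only in part. A member lay at the start of 46.7% of 14731 genes with 1 listed start, 58.0% of 2074 with 2, 53.2% of 479 with 3 and 45.7% of 208 with 4 or more.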
